A study of Mus musculus with 24 samples.

Results

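LSKs of BC CML mice, which carry BCR-ABL and lack miR-142, were compared with LSKs of WT mice, which have neither change. The comparison took every library of these 2 groups, 12 of the 24 in the series, and all genes of the count table. It asked how far the cells with both hits lay from normal cells, which genes got there because both hits pushed in the same direction, and in which genes the hits opposed each other and cancelled.

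Each group held 6 mice, 3 female and 3 male. BC CML mice (labelled miR-142 KO CML) had the SCLtTA/BCR-ABL transgenes on a B6 background together with a homozygous germline deletion of miR-142. In this model BCR-ABL is driven by the SCL promoter, which is active in stem and early progenitor cells, and is switched on when tetracycline is withdrawn. LSKs were harvested 2 weeks after that. The study reports the first circulating blasts of BC CML mice at a later time, and its group name is kept here. WT mice had an intact miR-142 gene and no BCR-ABL. The groups with 1 hit, miR-142 KO mice without BCR-ABL and CP CML mice with BCR-ABL and intact miR-142, entered the fit so that the distance could be split between the hits. LSKs are bone marrow cells sorted as Lin-Sca-1+c-Kit+, a mixed gate of stem cells and multipotent progenitors. Ages were not given in the sources used here. The study's text speaks of fewer mice per group for this experiment than the table holds, and all 6 were used.

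BCR-ABL is a constantly active tyrosine kinase that signals through the STAT5, RAS and PI3K pathways and drives proliferation of myeloid progenitors. miR-142 is a microRNA of blood cells. Its 2 mature strands guide Argonaute to matching sites in the 3′ UTRs of mRNAs, mainly through bases 2 to 8, the seed, and lower the stability and translation of those mRNAs. In mice its loss is known to disturb megakaryocyte, lymphoid, mast cell and erythroid development.

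The 2 mature strands are printed because most direct targets are recognised through their seeds, which are given in capitals (RefSeq, GRCm38.p6). mmu-miR-142a-5p lies at chr11:87756867-87756887 and mmu-miR-142a-3p at chr11:87756903-87756925, both on the + strand of the same hairpin.
mmu-miR-142a-5p: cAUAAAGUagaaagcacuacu
mmu-miR-142a-3p: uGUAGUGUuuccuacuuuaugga
The seeds differ, so the strands were searched for separately, as ACTTTAT for the 5p strand and ACACTAC for the 3p strand, on the transcript strand of annotated 3′ UTRs (GENCODE M21, GRCm38). The 7 target sites below are shown with their flanking bases, seed matches in capitals. The first 4 belong to the members of a list of published targets with the smallest p in BC CML vs WT. The other 3 belong to genes the study places in its pathway. Prkca, which the study names as a target, also held 5p sites, at chr11:107938358-107938364 and chr11:107937559-107937565 (- strand). In Cpt1a, another target the study names, no site of either strand was found. Only exact matches of 7 bases in the longest annotated 3′ UTR of each gene were searched. Shorter matches and sites in other transcripts would have been missed.
Itgav (3p site, chr2:83803779-83803785, + strand): tacacattACACTACag
Twf1 (3p site, chr15:94578192-94578198, - strand): agcctagtACACTACat
Clta (3p site, chr4:44032590-44032596, + strand): ctgtggaaACACTACgt
Tgfbr1 (3p site, chr4:47414874-47414880, + strand): tcatcctaACACTACag
Msi2 (3p site, chr11:88340233-88340239, - strand): gggcacagACACTACac
Mfn1 (5p site, chr3:32577190-32577196, + strand): gaaatgttACTTTATga
Nfe2l2 (5p site, chr2:75675872-75675878, - strand): gcagaaacACTTTATaa
Of 12612 tested genes with an annotated 3′ UTR, 6.97% held the 3p site and 15.85% the 5p site. A match is a description of the sequence, not of binding.

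Library totals ran from 16267965 to 24687077 reads counted to genes, and the 12 WT and BC CML libraries from 20206360 to 24687077. All 24 libraries matched their labelled sex by Xist. c-Kit and Sca-1 transcripts were present in every library. Levels are given as CPM, the reads of a gene relative to the reads its library counted to genes, after TMM scaling of the library size. Kit was at 784, 888 and 1219.5 CPM at the lowest, median and highest WT library and 746, 803 and 883 in BC CML. Ly6a, which encodes Sca-1, was at 30.7, 42.4 and 49.5 CPM in WT and 94.3, 106 and 135 CPM in BC CML. Both were named for this check after their values were seen. WT replicate 3 and miR-142 KO replicate 3 stood apart from the rest of their groups, BC CML replicate 3 had the lowest position of its group (0.8047 on the line from WT to BC CML used below), and WT replicates 1 and 4 and miR-142 KO replicates 4 and 5 were low in immediate early genes. A list of genes that respond to stress of dissociation had 8 of 10 members higher in BC CML than in WT and none lower, with summed levels of 972 to 1363 CPM in WT and 1466 to 2027 CPM in BC CML. Its part in the results below was not tested.

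The targeted gene was examined first. The libraries were made from mRNA, so the Mir142 row counted reads over the hairpin locus (chr11:87756864-87756927, + strand) and not the mature strands. WT libraries held 4.05, 4.34 and 5.32 CPM and CP CML libraries 3.22, 4.32 and 6.69 CPM. All 6 BC CML and all 6 miR-142 KO libraries held 0 counts, which allows up to 3 counts in each. BC CML was at least 32.8-fold lower than WT when those 3 counts per library were used as the floor. Every label of miR-142 genotype fitted this row.

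BC CML LSKs lay farther from WT LSKs than either group with 1 hit did, by the values themselves. The distance was taken as the root mean square difference of the group means of log2 CPM over all 13520 tested genes. It was 0.954 between BC CML and WT, 0.657 between CP CML and WT, and 0.594 between miR-142 KO and WT. The median distance between 2 single mice of the same group was 0.516 in WT and 0.448 in BC CML, and after the part that such spread adds was removed the BC CML to WT distance was 0.933. Its exact permutation p was 0.00216 (one-sided), the smallest that splits of 6 against 6 mice allow. Leaving out each mouse in turn gave distances of 0.940 to 0.987.

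The single hits lay near the middle of the way. On the line from the WT mean (0) to the BC CML mean (1), with each WT and BC CML library placed on a line drawn without it, miR-142 KO LSKs averaged 0.470 ± 0.109 (SD, n = 6) and CP CML LSKs 0.539 ± 0.076 (SD, n = 6). WT libraries averaged 0.029 ± 0.077 and BC CML libraries 0.982 ± 0.109. No library of 1 hit overlapped with WT or BC CML. On this line the positions of CP CML and miR-142 KO did not differ beyond their spread, with a difference of 0.069 (exact permutation test, two-sided, p = 0.236). Without miR-142 KO replicate 3, whose position of 0.6774 was the highest of its group, the difference was 0.11 (exact p = 0.026), and with every gene scaled to the same variance it turned to -0.033 (exact p = 0.641). The line shows 1 direction only. Over all tested genes the groups with 1 hit lay 0.660 apart (exact permutation test, one-sided, p = 0.00216). That was about as far as CP CML lay from WT (0.657).

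**Figure D1:**
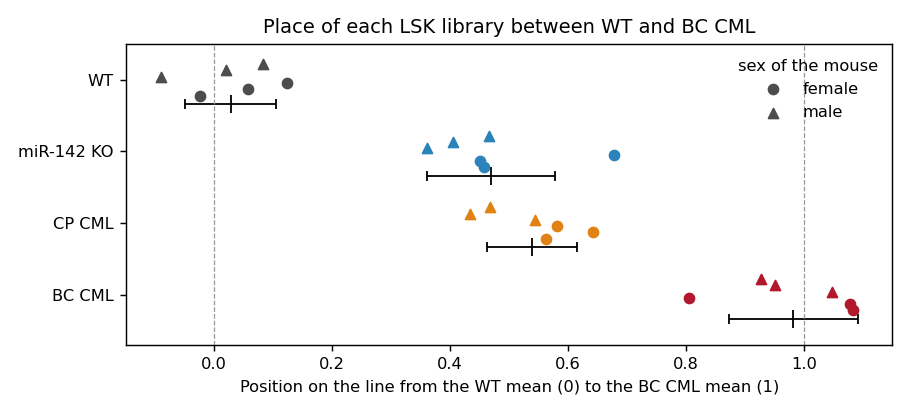
Position of each of the 24 libraries on the line from the WT mean (0) to the BC CML mean (1) of log2 CPM over 13520 genes, with group means ± SD as bars and the sex of the mouse as the symbol. The miR-142 KO libraries sit between 0.3618 and 0.6774 and the CP CML libraries between 0.4348 and 0.6432, apart from both ends.

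With edgeR's quasi-likelihood test and Benjamini-Hochberg adjustment over all tested genes, 8783 of 13520 genes differed between BC CML and WT at adjusted p < 0.05 (65.0%), of which 4448 were higher (32.9%) and 4335 lower (32.1%). These shares are the background for every count below. The 6 BC CML values and the 6 WT values did not overlap in 5306 genes (39.2%). A change of at least 2-fold in either direction was reached by 2043 of the called genes, 902 higher and 1141 lower. The split was sensitive to scaling: 50.6% of called genes were higher with TMM scaling, and 40.2% with upper quartile scaling, which moved the median log2 fold change of all genes from -0.010 to -0.095.

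The distance of each gene was then split between the hits. The BCR-ABL effect is the mean log2 difference that BCR-ABL made in mice with and without miR-142, the miR-142 effect is the mean difference that loss of miR-142 made with and without BCR-ABL, and the 2 add up exactly to BC CML minus WT. The BCR-ABL effect passed the test in 7754 genes (57.4%), 3728 higher (27.6%) and 4026 lower (29.8%). The effect of miR-142 loss passed in 6940 genes (51.3%), 3698 higher (27.4%) and 3242 lower (24%). Both effects come from the same 24 libraries.

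Both effects passed the test in 4327 genes, and in 3600 of these they had the same sign. Both raised 1875 genes (13.9% of those tested) and both lowered 1725 (12.8%). When the hits were taken in order instead, from WT to CP CML to BC CML, 889 and 709 genes were moved the same way by both steps, and from WT to miR-142 KO to BC CML 989 and 710. Opposing effects were found in 727 genes. In 542 of them (4.01%) BC CML did not differ from WT at adjusted p < 0.05, and these are called cancelled. In the other 185 (1.37%) a net difference remained, which had the sign of the BCR-ABL effect in 72 and of the miR-142 effect in 113. A further 3427 genes were past the test for the BCR-ABL effect alone and 2613 for the miR-142 effect alone. Just inside the limit for both effects was Galr3, whose larger adjusted p was 0.04999, and just outside was Nck2, at 0.0502.

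The genes moved one way by both hits carried most of the distance. Those raised by both made up 35.3% of the summed squared log2 differences between BC CML and WT, and those lowered by both 24.5%. Genes past the test for the BCR-ABL effect alone gave 21% and those for the miR-142 effect alone 15.9%. The opposing genes gave 0.2% (cancelled) and 1.2% (net). Among the 2043 genes with at least a 2-fold change, 488 were raised by both and 634 lowered by both. A further 411 were past the test for the BCR-ABL effect alone and 453 for the miR-142 effect alone. The groups follow from the fitted effects themselves, so these shares are descriptions.

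Genes raised by both had a median log2 fold change of 0.60 in BC CML vs WT, and 1716 of 1875 had no overlap between the 6 and 6 values. Those lowered by both had a median of -0.74, and 1479 of 1725 had no overlap. Over all tested genes 39.2% had none. Both effects of these genes passed the test and sum to BC CML minus WT. Their medians and lack of overlap therefore follow in large part from the class rule. The raised genes had shorter exons in sum and were more abundant, with a median length of 2.69 kb against 4.11 kb and a median of 58.8 CPM against 24.6 CPM. The 3p seed match stood in 8.265% of the 3′ UTRs of genes raised by both and in 5.549% of those lowered by both, beside 6.97% of all. The higher share was not particular to genes raised by both. It was 10.769% in the cancelled and 10.674% in the net genes. Among all genes raised by miR-142 loss it was 10.71%, and among all those lowered by it 4.806%. Between genes raised and lowered by both, the share with the 5p match went the other way, with 13.322% and 16.895% beside 15.85%. The median 3′ UTR was 934 bases in the raised and 1512.5 bases in the lowered genes. Per kilobase of 3′ UTR, the 3p match occurred 0.065 times in the raised and 0.032 times in the lowered genes, beside 0.046 over all. The 5p match occurred 0.109 and 0.106 times, beside 0.117, so the order of its shares was not kept per kilobase. No test was run on these rates.

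**Figure D2:**
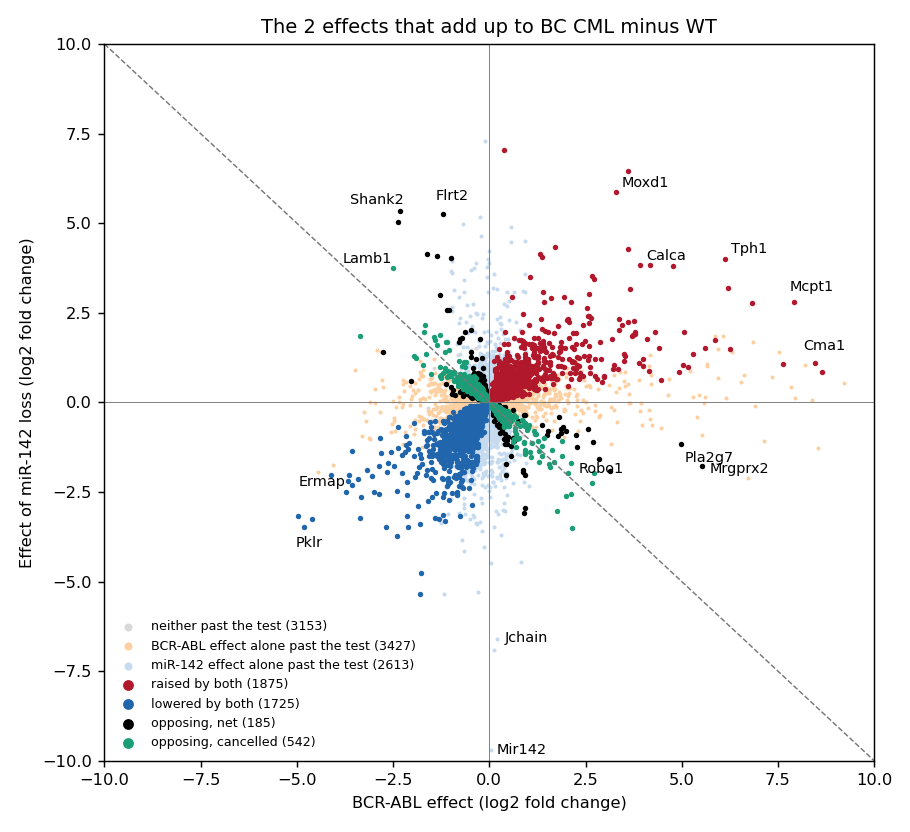
Effect of BCR-ABL (x axis) and of miR-142 loss (y axis), as log2 fold changes, for the 13520 tested genes, coloured by class. Genes on the dashed line have effects that sum to 0. The 542 cancelled genes lie along it, Tph1 and Cma1 lie far out in the corner of genes raised by both, and Pklr and Ermap in that of genes lowered by both.

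Among the 36 gene lists, that of mast cell genes had the highest median change. Of 20 genes of mast cells and basophils, 16 were higher in BC CML than in WT, none was lower, and 13 were raised by both hits. Their median log2 fold change was 2.56, beside -0.010 over all tested genes. Summed over the list, the lowest, median and highest libraries held 1822, 2209.9 and 2355 CPM in WT, 2374, 3206 and 5266 CPM in miR-142 KO, 4576, 6145 and 7582 CPM in CP CML and 9188, 13654 and 17741 CPM in BC CML. In bulk RNA of a sorted gate, more cells of a type and more RNA per cell cannot be told apart. This holds for every list below.

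Cpa3, the carboxypeptidase of mast cell granules (chr3:20215616-20242181, - strand), stood at 44.7, 83.3 and 109 CPM in WT, 141, 264 and 502 CPM in miR-142 KO, 723, 1133 and 1426 CPM in CP CML and 2411, 4164 and 5566 CPM in BC CML. No group overlapped with WT, and no other overlapped with BC CML (BC CML vs WT log2 fold change 5.70 ± 0.34 (SE), adjusted p = 5.2e-12). BCR-ABL added 3.79 ± 0.22 and miR-142 loss 1.91 ± 0.21 on the log2 scale, and the sum did not differ from additive beyond its error (interaction adjusted p = 0.923). Tph1, the rate-limiting enzyme of serotonin synthesis, rose from 0.0819, 0.152 and 0.535 CPM in WT to 194, 232 and 344 CPM in BC CML (log2 fold change 10.13 ± 0.71 (SE), adjusted p = 5.97e-11). WT libraries held 2 to 12 counts of it, so the size of that fold rests on few reads. It was at 8.09, 22.5 and 71.1 CPM in miR-142 KO and 58.3, 119.7 and 205 CPM in CP CML, so each hit alone had raised it over every WT mouse, and together they fell short of the sum (interaction -6.04, adjusted p = 0.000371).

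The chymases and tryptases, serine proteases of mast cell granules, owed their rise mainly to BCR-ABL. Cma1 was at 0.586, 2.17 and 4.35 CPM in WT and 919, 1657 and 2784 CPM in BC CML (log2 fold change 9.57 ± 0.50 (SE), adjusted p = 4.31e-13), with a BCR-ABL effect of 8.46 and a miR-142 effect of 1.11. Mcpt4 had effects of 7.62 and 1.08, and Tpsb2 of 8.64 and 0.85. The miR-142 effect of Tpsb2 was close to the limit and was lost in 16 of 33 alternatives, as without miR-142 KO replicate 2 (0.33, adjusted p = 0.370). In Tpsab1 (miR-142 effect 0.53, adjusted p = 0.562) and Mcpt2 (0.080, adjusted p = 0.902) the effect of miR-142 loss was not past the test. Mcpt1, Mcpt2, Mcpt4, Tpsab1 and Tpsb2 have near-identical neighbours, so the division of reads among them is uncertain. The 4 members that did not differ at adjusted p < 0.05 were Mcpt8 and Prss34, the proteases of basophils, with Kit and Il6ra. The last 2 turned on the setting. Kit was lower in BC CML past the test in 18 of 34 alternatives, with -0.22 by DESeq2 (adjusted p = 0.02999), -0.30 with upper quartile scaling (adjusted p = 0.00869) and -0.26 without WT replicate 3 (adjusted p = 0.0193), and Il6ra was higher without WT replicate 3 (0.33, adjusted p = 0.0225), so that 17 members were then higher and 1 lower. Prss34 was at 7.06, 144 and 262 CPM in WT and 77.8, 150.2 and 320.4 CPM in BC CML, and Mcpt8 at 11.4, 104 and 158 and 85.1, 130.5 and 283 CPM. These and the other list members outside the naming rule were picked after their values were seen.

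Genes of neutrophil primary granules, which myeloid progenitors switch on as they commit, were also raised by both. Of 16, 15 were higher in BC CML and none lower, with a median log2 fold change of 1.77, and 12 were in the class raised by both. Ctsg, cathepsin G, held 74.5, 162 and 360.5 CPM in WT and 1039, 1446 and 1627 CPM in BC CML (log2 fold change 2.93 ± 0.27 (SE), adjusted p = 3.27e-09), with 755 and 696 CPM as the medians of miR-142 KO and CP CML. For Elane, neutrophil elastase, loss of miR-142 gave 1.74 ± 0.26 and BCR-ABL 0.81 ± 0.25, and the levels were 35.2, 85.8 and 285 CPM in WT and 498, 704 and 787 CPM in BC CML, without overlap. Hp, haptoglobin, rose from 3.14, 9.67 and 32.5 to 173, 235 and 279 CPM (log2 fold change 4.20 ± 0.35 (SE), adjusted p = 9.78e-10), and its effects of 2.50 for BCR-ABL and 1.70 for miR-142 loss were less than additive (interaction adjusted p = 0.0206). Clec12a was the one member not past the test, and passed it without WT replicate 3 (0.84, adjusted p = 0.00806) or without miR-142 KO replicate 3 (0.57, adjusted p = 0.0272). Mature neutrophil genes split, with 8 of 15 higher and 5 lower: Lcn2, lipocalin 2, was raised by both (1.38 to 71.2 CPM at the medians), while the chemokine receptor Cxcr2 rose with miR-142 loss alone (1.78, against 0.24 for BCR-ABL, which passed without WT replicate 3 at 0.30) and Retnlg, a resistin-like secreted protein, was lowered by both.

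Receptors for myeloid cytokines and enzymes of leukotriene synthesis joined the rise. In the receptor list 13 of 21 genes were higher and 5 lower, among them Epor and Flt3. Il5ra and Il1r1 were also lower, but the call of Il5ra was lost in 7 of 34 alternatives, as without WT replicate 3 (-0.73, adjusted p = 0.0786), and that of Il1r1 in 3, as without WT replicate 4 (-0.29, adjusted p = 0.0599) or the 4 libraries low in immediate early genes (-0.31, adjusted p = 0.0683). The shared beta chain of the IL-3, IL-5 and GM-CSF receptors, Csf2rb, went from 78.3, 95.2 and 147 CPM in WT to 352, 486 and 516 CPM in BC CML, and its paralog Csf2rb2 from 16.8, 23.8 and 39.00 to 244, 387 and 541 CPM. The pair is similar enough that reads may have been divided unevenly. Alox5, the 5-lipoxygenase that opens leukotriene synthesis, stood at 3.14, 15.7 and 25.1 CPM in WT and 139, 193 and 227 CPM in BC CML (log2 fold change 3.68 ± 0.43 (SE), adjusted p = 1.21e-07), and both hits raised it (2.19 by BCR-ABL, 1.49 by miR-142 loss). Its partner Alox5ap changed by 0.58, the leukotriene receptor Cysltr1 by 3.51 with most of it from miR-142 loss (2.93, while its BCR-ABL effect of 0.58 was lost in 14 of 33 alternatives), and the prostacyclin receptor Ptgir by 2.51. Over the list of leukotriene and prostaglandin genes, 12 of 22 were higher and 3 lower (Ptges, Tbxas1 and Ptger2).

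Nuclear genes of the respiratory chain rose a little and almost all together. For complex I, which takes electrons from NADH, 34 of 37 subunit genes were higher in BC CML, none was lower, and 25 were raised by both, with a median log2 fold change of 0.40. Complexes II to V, up to the ATP synthase, had 35 of 39 higher, 1 lower (Cox7c, a call lost in 9 of 34 alternatives, as at -0.40 and adjusted p = 0.106 without BC CML replicate 6) and 28 raised by both, with a median of 0.49. The median BCR-ABL effect was 0.19 for complex I and 0.28 for complexes II to V, and the median miR-142 effect 0.21 and 0.20. Cyc1, cytochrome c1 of complex III and one of the members with the smallest p, had 62.4, 68.05 and 77.3 CPM in WT and 106, 118 and 128 CPM in BC CML, no overlap and a log2 fold change of 0.78, adjusted p = 6.76e-08. With upper quartile scaling 30 of 37 and 31 of 39 were higher and 1 of each list lower.

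Glycolysis followed the same way, with 17 of 23 genes higher and 3 lower (Pfkm, Aldoc and Ldhb, isoforms of other tissues). Aldoa, aldolase A, rose by 1.04 and Pfkp, a phosphofructokinase, by 1.36, both without overlap. Carnitine shuttle and beta-oxidation genes were more mixed, with 18 of 31 higher, 5 lower and only 8 raised by both. With upper quartile scaling those counts were 13 higher and 7 lower. Acsl1, which activates long-chain fatty acids, was at 65.2, 71.4 and 80.2 CPM in WT and 123, 138 and 148 CPM in BC CML (log2 fold change 0.94 ± 0.072 (SE), adjusted p = 2.38e-10).

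NRF2 targets, the genes of the antioxidant response, were higher in 18 of 30 cases and lower in 6 (Nqo1, Hmox1, Gsta3, Gsta4, Gstm5 and Cat), with 12 raised by both. Nfe2l2 itself, which encodes NRF2 and holds the 5p site printed above, was at 107, 116 and 118 CPM in WT and 160.0, 170.3 and 174 CPM in BC CML (log2 fold change 0.57 ± 0.042 (SE), adjusted p = 1.5e-10), with no overlap. Idh1, a cytosolic source of NADPH, had 39.7, 50.8 and 70.7 CPM in WT and 148, 179 and 184 CPM in BC CML (log2 fold change 1.75 ± 0.12 (SE), adjusted p = 3.37e-11), and miR-142 loss gave 1.20 ± 0.082 of it. Slc7a11, the cystine importer, went from 0.328, 0.711 and 1.01 to 5.04, 11.2 and 12.1 CPM. Nqo1, the quinone reductase often read as the marker of NRF2 activity, moved against the list: both hits lowered it, from 5.81, 6.86 and 8.55 CPM in WT to 1.68, 2.25 and 2.85 CPM in BC CML (log2 fold change -1.60 ± 0.15 (SE), adjusted p = 6.39e-09).

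Published miR-142 targets were gathered from the literature, but the list was chosen with earlier results of these data known. They were higher in 19 of 32 cases and lower in 4 (Msi2, Adcy9, Smad3 and Rictor). In 10 of them BCR-ABL raised the mRNA too, and with upper quartile scaling in 5. Itgav, the integrin alpha V whose 3p site is printed above, held 39.6, 41.4 and 46.8 CPM in WT, 85.9, 87.4 and 95.1 CPM in miR-142 KO, 38.8, 42.6 and 48.5 CPM in CP CML and 90.2, 104 and 111 CPM in BC CML. The 2 groups without miR-142 lay above both groups with it, and BCR-ABL added 0.12 ± 0.041 to the 1.15 ± 0.042 of miR-142 loss. With upper quartile scaling the BCR-ABL part was 0.083 and not past the test (adjusted p = 0.0726). Tgfbr1, a TGF-beta receptor, had 67.7, 75.9 and 80.5 CPM in WT and 164, 192 and 253 CPM in BC CML, and the actin regulator Twf1 50.3, 54.2 and 58.4 and 114, 129 and 136 CPM. Both were raised by both hits, by 0.47 and 0.93 for Tgfbr1 and by 0.39 and 0.84 for Twf1 (BCR-ABL first). Clta, a clathrin light chain, rose by 0.80 in the same way.

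**Figure D3:**
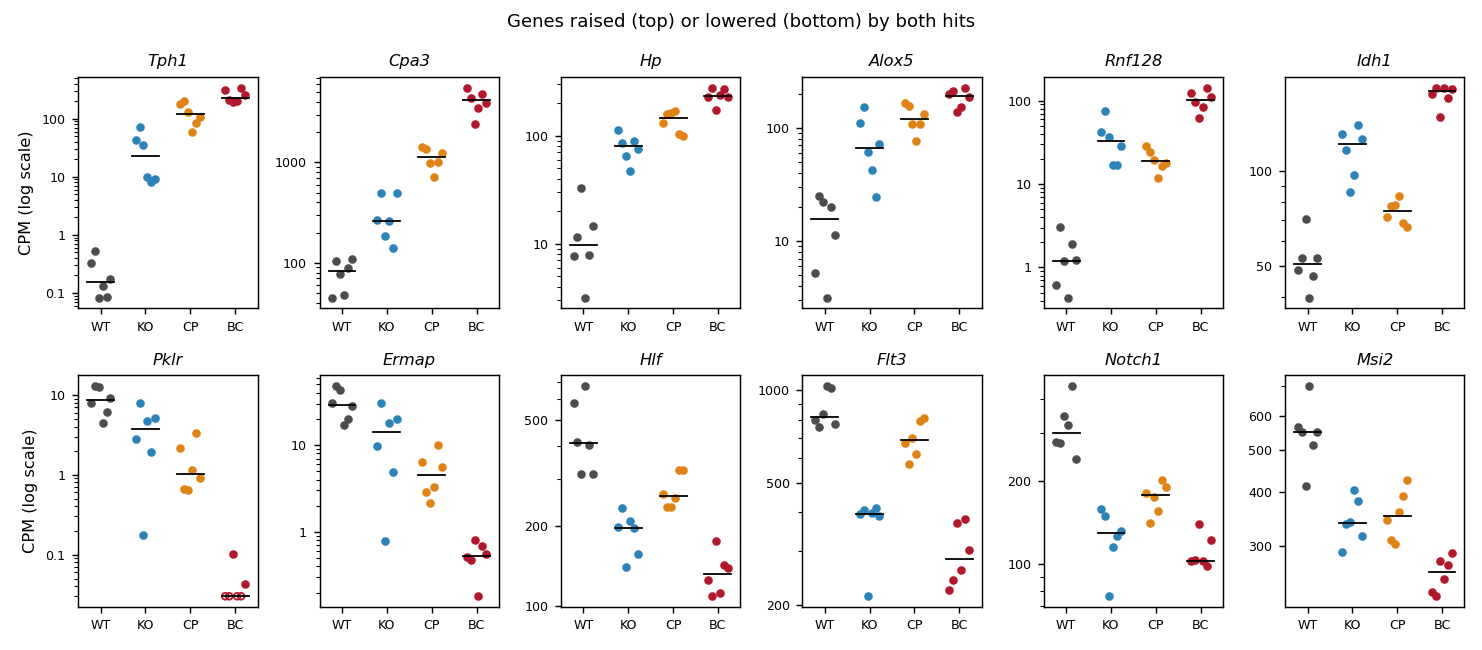
CPM on a log scale in each of the 6 libraries of the WT group, the 2 groups with 1 hit (miR-142 KO and CP CML) and the BC CML group for 6 genes raised (top) and 6 lowered (bottom) by both hits, with group medians as bars and open circles for values drawn at 0.03 CPM because they were below it. Both groups with 1 hit lie between the outer groups in their medians, and BC CML and WT do not overlap in any of the 12 genes.

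Among mitosis genes 25 of 40 were higher in BC CML and 1 was lower (Kif23). Most of this came with miR-142 loss, which raised 25 of the 40 against 11 for BCR-ABL. Without the 4 libraries low in immediate early genes, 19 were higher and 5 lower. Anln, anillin of the cleavage furrow, held 82.5, 116 and 122 CPM in WT and 189.9, 221 and 232 CPM in BC CML (log2 fold change 1.005 ± 0.081 (SE), adjusted p = 5.16e-10), with a BCR-ABL effect of 0.13 just outside the limit (adjusted p = 0.0522, past it in 12 of 33 alternatives). Aurka, the mitotic kinase Aurora A, was raised by both and changed by 0.82.

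In several genes with a large rise, only the BCR-ABL effect was past the test. Cdkn2a, which encodes the cell cycle inhibitors p16 and p19, was at or below 1 count in each WT and each miR-142 KO library (0 CPM at the WT median), at 0.600, 0.798 and 4.002 CPM in CP CML and at 2.32, 3.65 and 4.08 CPM in BC CML. Its neighbour Cdkn2b, which encodes p15, showed the same order, with at most 0.0409 CPM in WT and 0.656, 0.926 and 1.36 CPM in BC CML. No WT library overlapped with a BC CML library in either gene. Cobl, an actin nucleator, stood at 0.0409, 0.128 and 0.267 CPM in WT and 21.9, 39.9 and 61.6 CPM in BC CML, and the homeobox gene Meis2 at 0.0409, 0.0660 and 0.251 and 2.07, 2.74 and 4.05 CPM. For these 4 genes the miR-142 effect lay between 0.12 and 0.71 and was not past the test. In these 12 libraries 3 counts are worth 0.123 to 0.151 CPM, so the fold changes of these 4 genes depend on the fit and are not given here.

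Erythroid genes had the lowest median of the 36 lists, and most of them were lowered by both hits. Of 14, 11 were lower in BC CML than in WT, 1 was higher (Tfrc, the transferrin receptor, which dividing cells of all lineages carry), and 8 were lowered by both. The median log2 fold change was -3.03. Pklr, the pyruvate kinase of red cells (chr3:89136142-89146594, + strand), was at 4.48, 8.51 and 12.9 CPM in WT, 0.177, 3.77 and 7.91 CPM in miR-142 KO, 0.647, 1.04 and 3.37 CPM in CP CML and 0, 0 and 0.101 CPM in BC CML. BC CML fell below what the single hits add up to (interaction adjusted p = 0.028), although its near-zero values make the size of that step depend on the fit. Ermap, an erythroid membrane protein, went from 16.97, 29.3 and 47.9 CPM in WT to 0.181, 0.535 and 0.807 CPM in BC CML (log2 fold change -5.85 ± 0.65 (SE), adjusted p = 6.12e-08), and Car1, a carbonic anhydrase of red cells, from 37.04, 61.1 and 83.9 to 0.424, 0.600 and 2.22 CPM. In Car1 miR-142 loss without BCR-ABL had no effect past the test (-0.11, adjusted p = 0.885), whereas with BCR-ABL the change was -3.94 (adjusted p = 0.000136; interaction adjusted p = 0.0153). Of the blood group genes, Kel went from 3.79, 6.72 and 10.2 to 0.0425, 0.0660 and 0.353 CPM and Rhd from 1.34, 3.64 and 5.08 to 0, 0.0448 and 0.127 CPM. Most of their BC CML values were under 3 counts, so no fold is given. Without WT replicate 3, 6 in place of 8 erythroid genes were lowered by both, and 11 were lower in BC CML vs WT as before.

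Genes that mark hematopoietic stem cells (HSCs) within the gate were lower in 20 of 25 cases and higher in 3 (Hoxb5, Gata2 and Ifitm1), and 12 were lowered by both, with a median of -1.21. Hlf, a transcription factor of HSCs, held 313, 409.7 and 674 CPM in WT, 139, 196 and 233 CPM in miR-142 KO, 235, 259 and 326 CPM in CP CML and 108, 132 and 175 CPM in BC CML. Its change (log2 fold change -1.75 ± 0.17 (SE), adjusted p = 1.24e-08) was made of -0.61 ± 0.12 from BCR-ABL and -1.15 ± 0.12 from miR-142 loss. Slamf1, the HSC surface marker CD150, was at 6.45, 8.54 and 9.58 CPM in WT and 2.40, 3.18 and 3.94 CPM in BC CML, and Mllt3, which sustains HSC self-renewal, at 52.3, 60.3 and 79.9 and 26.5, 31.00 and 33.9 CPM. Summed over the list, WT libraries held 1423 to 2163 CPM and BC CML libraries 1082 to 1278 CPM, without overlap.

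Genes of lymphoid-primed progenitors were lower in 10 of 13 cases and higher in 1, and 8 were lowered by both hits. Flt3, the receptor that marks this subset, held 758, 817 and 1029.8 CPM in WT and 225, 282 and 380.2 CPM in BC CML (log2 fold change -1.55 ± 0.15 (SE), adjusted p = 8.55e-09), of which miR-142 loss gave -1.23 ± 0.11 and BCR-ABL -0.32 ± 0.10. The latter was -0.26 (adjusted p = 0.0814) without the 4 libraries low in immediate early genes. Notch1, the receptor for T lineage commitment, went from 242, 300.2 and 446 to 98.5, 103 and 140.0 CPM. Rag2, a subunit of the recombinase of antigen receptor genes, had a BCR-ABL effect of -1.95 and a miR-142 effect of -0.56, and was less than additive (interaction adjusted p = 0.00511). Genes of T or NK cells did not move as one: 4 of 13 were higher and 3 lower, miR-142 loss raised 7 and lowered 2, and BCR-ABL raised 0 and lowered 7. Their summed level was 172 to 216 CPM in WT and 219.8 to 269.7 CPM in BC CML, without overlap. The T cell kinase Lck was the 1 member lowered by both hits, from 30.9, 42.5 and 54.8 to 9.05, 10.3 and 14.04 CPM. MHC class II genes were lower in 7 of 8 cases and none was higher. Cd74, the invariant chain, was at 50.1, 65.6 and 180.0 CPM in WT and 8.20, 15.5 and 23.9 CPM in BC CML, and Ciita, the class II transactivator, at 4.19, 5.89 and 8.51 and 1.18, 1.58 and 2.77 CPM (the miR-142 effect of Ciita was lost in 7 of 33 alternatives). The 7 genes stayed at 7 without the 2 libraries that stood apart, but 2 in place of 4 were then lowered by both, as without WT replicate 3 alone.

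Msi2, an RNA-binding protein of stem and leukemic cells that holds the 3p site printed above, was lowered by both hits. Its levels were 412, 549.7 and 702 CPM in WT, 292, 339 and 404 CPM in miR-142 KO, 303, 352 and 426 CPM in CP CML and 229.9, 262 and 289.6 CPM in BC CML. BC CML was lower than WT without overlap (log2 fold change -1.08 ± 0.10 (SE), adjusted p = 8.26e-09), with -0.52 ± 0.073 from BCR-ABL and -0.56 ± 0.073 from miR-142 loss. The study reports the opposite direction for miR-142 loss. It found more Msi2 mRNA and protein in LSKs of BC CML than of CP CML mice, and of miR-142 KO than of WT mice. The source of this disagreement was not tested.

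**Figure D4:**
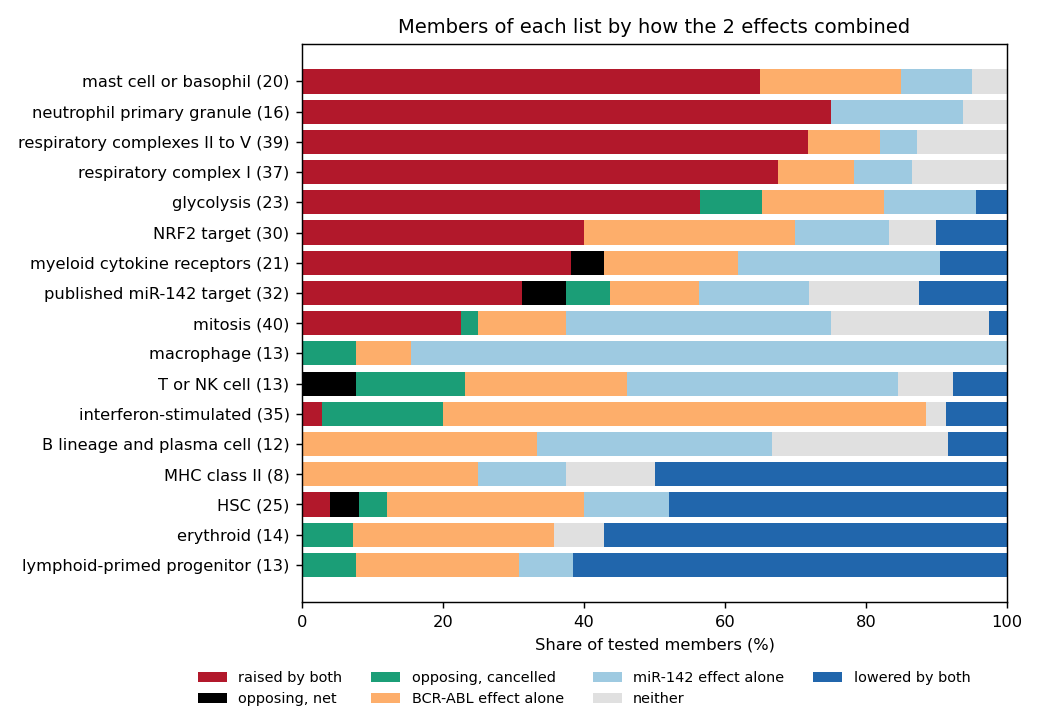
Share of the tested members of 17 gene lists (number in brackets) in each class, in percent, with the class as the colour of the bar. Genes raised by both make up 13 of 20 in the mast cell or basophil list and 28 of 39 in the list of respiratory complexes II to V, and genes lowered by both 8 of 14 in the erythroid list.

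Some of the deepest falls came with miR-142 loss alone. Jchain, the joining chain of secreted immunoglobulins, was at 32.3, 351 and 909 CPM in WT, 0.850, 2.19 and 6.94 CPM in miR-142 KO, 135, 299 and 694 CPM in CP CML and 0.432, 5.37 and 10.8 CPM in BC CML. The groups without miR-142 did not overlap with those with it (BC CML vs WT log2 fold change -6.38 ± 0.79 (SE), adjusted p = 3.25e-07). Mzb1 and Pou2af1, genes of B and plasma cells, took the same course, with miR-142 effects of -4.13 and -4.49. In the B lineage and plasma cell list 8 of 12 genes were lower and none higher. Reln, reelin, went from 0.431, 2.54 and 6.68 CPM in WT to 0, 0 and 0.0851 CPM in BC CML. Macrophage genes were lowered by miR-142 loss in 12 of 13 cases, and in BC CML vs WT 6 were lower and 1 higher (Adgre1, a call lost in 11 of 34 alternatives, as at 0.98 and adjusted p = 0.0901 without WT replicate 2). This rested in part on WT replicate 3, whose summed macrophage level of 1654 CPM was the highest of all libraries. Without it 3 were lower in BC CML vs WT, and without it and miR-142 KO replicate 3, miR-142 loss lowered 8. Cd163, the hemoglobin scavenger receptor, was at 8.35, 14.98 and 109.6 CPM in WT and 2.31, 3.52 and 7.74 CPM in BC CML.

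In the cancelled genes BC CML did not differ from WT past the test although both effects did. Each effect is a mean over mice with and without the other hit, so the class does not show that each hit alone moved the gene. In 43 of these genes the interaction was past the test. Of the 542 cancelled genes, 363 were lowered by BCR-ABL and raised by miR-142 loss and 179 the reverse, and 466 ended within 0.25 log2 units of WT. Not past the test does not mean equal, and the limits are given by the errors. Smarca1, a chromatin remodeller, was at 0.696, 1.35 and 2.45 CPM in WT, 0.177, 0.548 and 0.840 CPM in miR-142 KO, 6.86, 12.02 and 21.4 CPM in CP CML and 0.890, 2.98 and 3.94 CPM in BC CML. CP CML lay above and miR-142 KO below most WT values, and BC CML overlapped with WT (log2 fold change 0.77 ± 0.39 (SE), adjusted p = 0.0833). Its effects were 2.73 ± 0.29 for BCR-ABL and -1.96 ± 0.29 for miR-142 loss, and they did not depart from additive (interaction adjusted p = 0.413). Its total passed the test without WT replicate 4 (0.95, adjusted p = 0.0467) and without BC CML replicate 6 (0.95, adjusted p = 0.0310), and was 1.25 (adjusted p = 0.0185) without the 4 libraries low in immediate early genes.

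Robo1, a receptor for SLIT guidance cues, ended near WT by another route. WT held 0.409, 1.06 and 1.25 CPM and BC CML 0.997, 1.32 and 1.60 CPM, while miR-142 KO was at 0.0425, 0.107 and 0.265 CPM, below every other library, and CP CML at 1.58, 1.74 and 2.67 CPM. Loss of miR-142 gave -2.83 without BCR-ABL (adjusted p = 6.13e-07) and -0.54 with it (adjusted p = 0.0936), and the interaction was past the test (adjusted p = 0.00347). Chil1, a chitinase-like protein, was above 1 CPM only in CP CML, at 3.15, 4.37 and 7.503 CPM, against 0 to 0.205 CPM in WT, 0 to 0.309 CPM in miR-142 KO and 0 to 0.0943 CPM in BC CML (interaction adjusted p = 0.00117). Its main effects of 2.14 and -3.52 therefore describe 1 group and not 2 opposing moves, and without BC CML replicate 1 the first was 1.94 (adjusted p = 0.0522).

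In Lamb1, a laminin chain, miR-142 loss gave 3.75 ± 0.80 and BCR-ABL -2.50 ± 0.81, and the levels were 0.0410, 0.685 and 1.55 CPM in WT and 0.130, 0.888 and 4.83 CPM in BC CML (log2 fold change 1.25 ± 1.01 (SE), adjusted p = 0.285). The values within the groups were wide: miR-142 KO ran from 0.123 to 32.1 CPM, and its lowest 2 libraries, with the lowest 2 of WT, were the 4 low in immediate early genes. Eomes, a T-box factor of T and NK cells, had in miR-142 KO 0.328, 2.37 and 7.07 CPM beside 0.350, 0.446 and 0.579 CPM in WT, and the 2 low libraries of immediate early genes were again its lowest. Whether that state of the libraries set these values was not tested. Camp, a granule peptide of neutrophils, ended at 0.0424, 0.111 and 0.468 CPM in BC CML beside 0.131, 0.332 and 1.08 CPM in WT, with 0.531, 6.81 and 12.5 CPM in miR-142 KO. Without BC CML replicate 5 the total of Camp was past the test (-2.13, adjusted p = 0.0489) and its miR-142 effect was not (1.54, adjusted p = 0.0640). Fabp4, a fatty acid binding protein, and Cd5l, a macrophage protein, took the reverse course, up with BCR-ABL (1.57 and 1.76) and down with miR-142 loss (-1.80 and -3.03). The BCR-ABL effect of Cd5l was 1.56 (adjusted p = 0.0762) without the 4 libraries low in immediate early genes.

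In interferon-stimulated genes, which cells switch on against viruses, the total was smaller than the BCR-ABL effect. BCR-ABL lowered 33 of 35, with a median effect of -1.10, and in BC CML vs WT 17 were lower, 1 was higher (Gbp3) and 17 were not past the test, with a median of -0.81. Loss of miR-142 raised 7 and lowered 3. The cancelled class held 6: Isg15, Mx1, Bst2, Oas1a, Oasl1 and Cmpk2, all named after their values were seen. Cmpk2, a mitochondrial nucleotide kinase, was at 27.5, 31.2 and 38.98 CPM in WT, 17.1, 42.4 and 68.98 CPM in miR-142 KO, 14.6, 15.7 and 17.5 CPM in CP CML and 17.4, 25.6 and 47.9 CPM in BC CML. Isg15, the ubiquitin-like modifier, was at 4.24, 5.74 and 11.5 CPM in WT and 2.04, 3.31 and 8.42 CPM in BC CML (log2 fold change -0.73 ± 0.43 (SE), adjusted p = 0.14), and Bst2, tetherin, at 30.7, 32.4 and 34.2 and 30.6, 36.9 and 43.9 CPM (0.19, adjusted p = 0.192). These counts turned on single libraries. BC CML replicate 3 held the highest summed level of its group (1910 CPM, the next 1214 CPM), and without it 29 of the 35 genes were lower in BC CML vs WT, miR-142 loss raised 3, and none of Isg15 (-1.10, adjusted p = 0.0316), Mx1 (-1.63, adjusted p = 0.0132) and Oasl1 (-0.88, adjusted p = 0.0297) was still cancelled. miR-142 KO replicate 3 was the lowest of its group for each of the 6 genes, and without it and WT replicate 3, 24 were lower in BC CML vs WT and miR-142 loss raised 11. The miR-142 effect was lost in 14 of 33 alternatives for Isg15, in 19 of 33 for Mx1 and in 12 of 33 for Oas1a. Trim30a and Ifit2 were lowered by both hits, with log2 fold changes of -1.35 and -1.11 in BC CML vs WT.

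**Figure D5:**
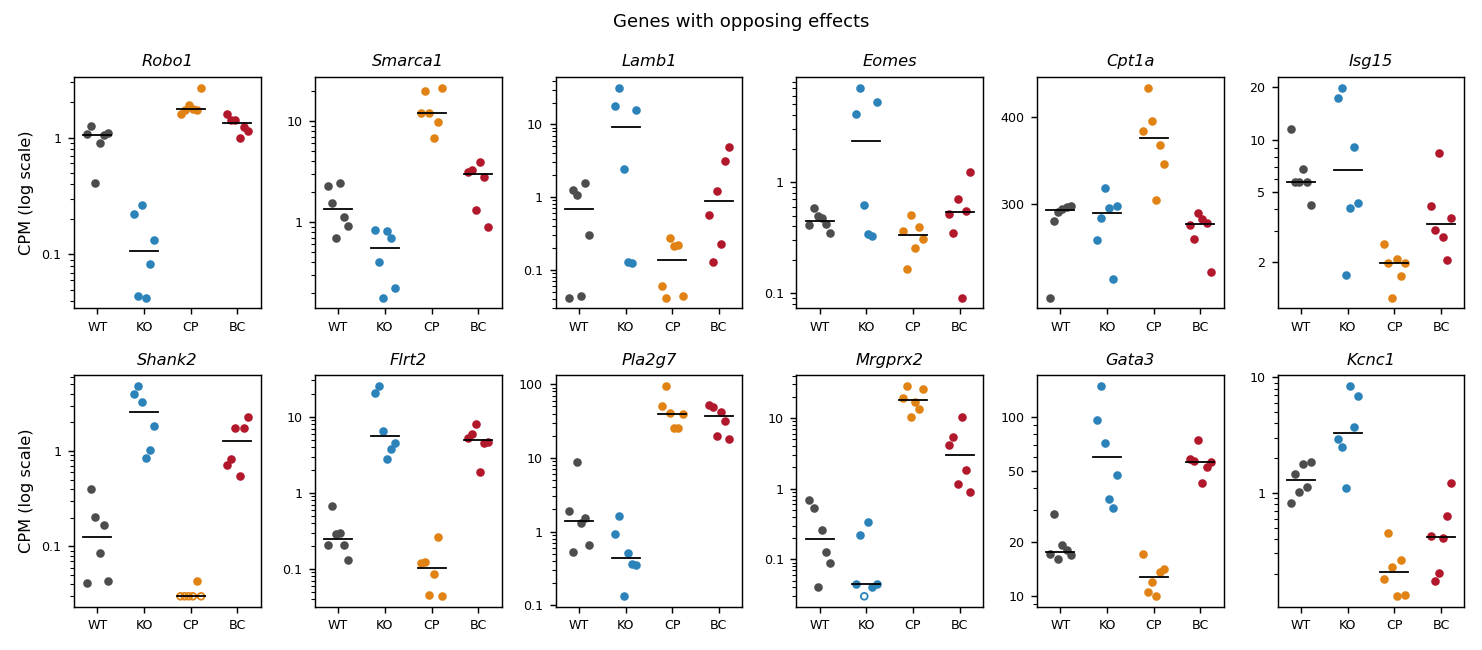
CPM on a log scale in each of the 6 libraries of the WT group, the 2 groups with 1 hit (miR-142 KO and CP CML) and the BC CML group. The 12 genes had BCR-ABL and miR-142 effects of opposite sign. Bars are group medians, and open circles are values drawn at 0.03 CPM because they were below it. The top row holds cancelled genes, in which BC CML overlaps with WT, and the bottom row genes with a net difference.

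By construction, the 185 genes with a net difference ended on the side of the stronger hit. Shank2, a scaffold protein, was at 0.0410, 0.127 and 0.401 CPM in WT, 0.850, 2.56 and 4.82 CPM in miR-142 KO, 0, 0 and 0.0437 CPM in CP CML and 0.544, 1.28 and 2.29 CPM in BC CML (log2 fold change 3.03 ± 0.54 (SE), adjusted p = 3.91e-05). With 1 to 9 counts in each WT library, the size of its fold is imprecise. Flrt2, a membrane protein of cell adhesion, had the same order, with a miR-142 effect of 5.26 ± 0.43 against -1.20 ± 0.46 for BCR-ABL, and the 6 BC CML values (1.90 to 8.02 CPM) lay above all WT values (0.131 to 0.668 CPM). Its BCR-ABL effect was lost without WT replicate 2 (-1.01), miR-142 KO replicate 2 (-0.96) and CP CML replicates 3 (-1.13) or 6 (-1.12). Gata3, a transcription factor of T and innate lymphoid cells, was at 16.1, 17.7 and 28.5 CPM in WT and 42.6, 56.2 and 74.2 CPM in BC CML, raised by miR-142 loss (2.02) and lowered by BCR-ABL (-0.47, lost in 18 of 33 alternatives). Pla2g7, a phospholipase that cleaves platelet-activating factor, went with BCR-ABL instead: 0.535, 1.40 and 8.92 CPM in WT, 0.133, 0.440 and 1.64 CPM in miR-142 KO, 25.1, 39.9 and 94.4 CPM in CP CML and 18.1, 36.7 and 52.2 CPM in BC CML (log2 fold change 3.83 ± 0.53 (SE), adjusted p = 1.55e-06). WT replicate 3 was its highest WT library, and without it the miR-142 effect was -0.62 (adjusted p = 0.126). Mrgprx2, a receptor of mast cells, had a BCR-ABL effect of 5.52 and a miR-142 effect of -1.78, opposite in sign to the mast cell genes raised by both. Without the 4 libraries low in immediate early genes its miR-142 effect was -1.77 (adjusted p = 0.0531). Kcnc1, a potassium channel, was net lower (-1.36, adjusted p = 0.0119) although miR-142 loss raised it by 1.40.

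Genes that the study places downstream of miR-142 took different classes. The study compares BC CML with CP CML LSKs and reports more CPT1A and CPT1B protein, more Cpt1b mRNA, and higher PKC alpha, NRF2 and MFN1. It also describes the genes of HO-1 and NQO-1 as activated by NRF2 in BC CML LSKs. The levels here are of mRNA, and most are set against WT. Cpt1a, the carnitine palmitoyltransferase that admits fatty acids to mitochondria, was cancelled, at 220.3, 294 and 298 CPM in WT, 234, 292 and 317 CPM in miR-142 KO, 304, 374 and 441 CPM in CP CML and 240.1, 281 and 292 CPM in BC CML (log2 fold change -0.035 ± 0.085 (SE), adjusted p = 0.728). It was raised in CP CML (0.40 against WT, adjusted p = 0.000602) and lower again in BC CML (-0.44 against CP CML, adjusted p = 0.000299). Cpt1a changed by 0.010 with miR-142 loss in mice without BCR-ABL (interaction adjusted p = 0.0345). Without the 4 libraries low in immediate early genes its BCR-ABL effect was 0.13 (adjusted p = 0.0552). Cpt1b, its muscle isoform, was at 4.35, 5.15 and 6.91 CPM in WT and 4.67, 5.80 and 6.72 CPM in BC CML (0.14, adjusted p = 0.302). Prkca, which encodes PKC alpha, did not differ past the test between BC CML and WT (53.4, 62.6 and 70.9 and 57.1, 66.4 and 73.6 CPM, 0.11, adjusted p = 0.304), and was raised by miR-142 loss without BCR-ABL (0.49, adjusted p = 0.000204) but not with it (-0.025, adjusted p = 0.855; interaction adjusted p = 0.0255). Mfn1, a protein of mitochondrial fusion that holds the 5p site printed above, was raised by both and stood at 60.2, 64.3 and 66.5 CPM in WT and 75.4, 80.2 and 85.4 CPM in BC CML (log2 fold change 0.33 ± 0.045 (SE), adjusted p = 1.28e-06). Most of that came with miR-142 loss (0.25), and its BCR-ABL effect of 0.080 was lost in 8 of 33 alternatives. Hmox1, heme oxygenase, was lowered by miR-142 loss alone (-2.64), and its WT values of 9.01, 25.9 and 208 CPM included WT replicate 3 as the highest. With miR-142 loss, the mRNA of Cpt1a in CML and the mRNAs of Hmox1 and Nqo1 thus moved against the direction the study reports. The source of this difference was not tested.

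The hits added on the log scale in most genes, as far as the test could see. The interaction passed in 539 of 13520 genes (3.99%), against 116 of 1875 genes raised by both, 44 of 1725 lowered by both, 43 of 542 cancelled and 23 of 185 with a net difference. Rnf128, a ubiquitin ligase raised by both, was at 0.431, 1.21 and 3.07 CPM in WT, 16.9, 32.7 and 74.8 CPM in miR-142 KO, 11.9, 18.7 and 28.7 CPM in CP CML and 62.3, 103 and 143 CPM in BC CML, less than the sum of its single steps (interaction -2.28, adjusted p = 0.0152). Calca, which encodes calcitonin and CGRP, and Tnfrsf9, the receptor 4-1BB, had no interaction past the test (adjusted p = 0.136 and 0.395).

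BC CML against WT did not differ between the sexes in any gene after adjustment. The test of that difference, with 3 mice of each sex in each group, called 0 of 13520 genes (edgeR, lowest adjusted p = 0.995), and 357 had an unadjusted p below 0.05. DESeq2 was not run on this contrast.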

How the data were processed

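LSKs were sorted from 24 mice, and mRNA libraries were sequenced with paired reads (Kapa HyperPrep, NovaSeq). Per the labels and the study's methods, the authors trimmed reads (Trimmomatic), aligned them to mm10 with STAR 2.6.0 and counted them per gene with HTSeq 0.11.1. The deposited values are raw counts of 24091 genes, not normalized. Whether counting used strand is not given in the sources used here.

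All 24 libraries entered 1 edgeR 4.0.16 fit (R 4.3.3): TMM scaling, filterByExpr (13520 genes kept), quasi-likelihood tests and Benjamini-Hochberg adjustment at 0.05. The study used edgeR's likelihood ratio test, run here as an alternative. Main effects, interaction and BC CML minus WT were contrasts of that fit. Levels are CPM on TMM-scaled library sizes, and distances used log2 CPM with a prior count of 2. Scripts were tested on simulated data. All pairs of libraries within a group differed by more than sampling noise (lowest chi-square per degree of freedom 6.07). Alternatives were DESeq2 1.42.0, other scalings and filters, sex as a covariate, a fold limit, other ways of splitting the hits, and each mouse left out. Leaving out WT and miR-142 KO replicate 3 together, or the 4 libraries low in immediate early genes, was chosen after seeing the data.

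The members and the 36 lists were chosen with earlier results of these data known. Named were the 12 largest changes per direction without overlap, 8 genes per class (at least 1 CPM), up to 4 per list by p, the genes the study names, and, after their values were seen, Kit, Ly6a, list members that moved against their list or missed the test, 6 interferon genes, and the 2 genes at the class limit. Some genes are not reported here.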

Additional observations from a re-analysis of the deposited data

Results flagged for a closer look

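In the groups of 6 WT or 6 BC CML values of the genes and lists above, and in the positions of all groups, the gap between the highest or lowest library and the next was set against the whole range of the group. In 41 of 325 groups (12.6%) the ratio was above Dixon's 95% critical value for 6 values. Chance gives about 5% of groups, and the values of 1 library are not independent of each other.

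BC CML replicate 3 was the highest of its group in interferon-stimulated genes, with a summed level of 1910 CPM (the next 1214 CPM). Its levels were 24.21 CPM for Mx1 (next 5.657), 8.423 CPM for Isg15 (next 4.195), 24.92 CPM for Oasl1 (next 10.09), 47.86 CPM for Cmpk2 (next 26.87), 40.55 CPM for Ifit2 (next 25.6) and 95.93 CPM for Trim30a (next 64.01). The same library was highest for Rag2 (6.052 CPM), Car1 (2.219 CPM) and Kel (0.3531 CPM), and lowest for Idh1 (148.5 CPM) and Nfe2l2 (160 CPM). BC CML replicate 5 was lowest in the sum of mitosis genes (7084 CPM) and highest in the sums of mature neutrophil (676.5 CPM), STAT5 target (2368 CPM), ERK feedback (1529 CPM) and megakaryocyte genes (1735 CPM), in Dusp6 (63.64 CPM), Fabp4 (9.656 CPM), Gstm5 (11.1 CPM) and Il1r1 (141.2 CPM). BC CML replicate 1 was highest for Mcpt4 (894.5 CPM) and Tgfbr1 (253.2 CPM).

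WT replicate 3 was the highest WT library in the sums of macrophage genes (1654 CPM, the next 318.4 CPM) and NRF2 targets (4690 CPM). It held 49.73 CPM of Adgre1, 109.6 CPM of Cd163, 74.45 CPM of Cd5l, 208.3 CPM of Hmox1 and 8.922 CPM of Pla2g7, and the only WT count of Cdkn2b (0.04093 CPM). WT replicate 2 was highest for Gata3 (28.52 CPM), Gata2 (235.5 CPM) and Flrt2 (0.6683 CPM), WT replicate 1 for Isg15 (11.49 CPM) and Cdkn2a (0.04104 CPM), WT replicate 4 for Gsta3 (0.8614 CPM) and WT replicate 5 for Mir142 (5.319 CPM) and Mcpt1 (0.04188 CPM). WT replicate 1 was lowest for Cpt1a (220.3 CPM). miR-142 KO replicate 3 had the position nearest to BC CML of its group (0.6774, the next 0.4657).

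In 14 of the 131 genes named in the text the effect of miR-142 loss differed between CML and normal LSKs by the interaction test (edgeR, adjusted over all genes). Over all 13520 tested genes it differed in 539 (3.99%). Many of the named genes were chosen for large effects or small p, so the 2 shares are not comparable. Per gene, the log2 effect in CML minus that in normal LSKs was -6.04 for Tph1 (0.99 in CML and 7.03 in normal LSKs), -6.70 for Chil1 (-6.86 and -0.17), -4.50 for Pklr (-5.72 and -1.22), -3.83 for Car1 (-3.94 and -0.11), -2.28 for Rnf128 (2.40 and 4.68), -2.18 for Lcn2 (0.77 and 2.95) and -1.84 for Hp (0.78 and 2.62). It was -0.97 for Cxcr2 (1.30 and 2.27), -0.64 for Gata2 (-0.081 and 0.56), -0.51 for Prkca (-0.025 and 0.49), -0.45 for Cpt1a (-0.44 and 0.010) and -0.40 for Acsl1 (0.47 and 0.86). It was positive for Robo1, at 2.29 (-0.54 and -2.83), and for Rag2, at 2.00 (0.43 and -1.56).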

How the results depend on the processing

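The counts of BC CML vs WT, of each effect and of each class stayed within 1.5 times their values under the likelihood ratio test, DESeq2, RLE and upper quartile scaling, both filters, sex as a covariate, and, for BC CML vs WT, a fit of the 12 libraries alone. The balance of directions did change with upper quartile scaling. Genes raised by both then numbered 1338 in place of 1875, and those lowered by both 2315 in place of 1725. The share of called miR-142 effects that were higher was 40.7% in place of 53.3%. Requiring an absolute log2 fold change of at least 1 left 2043 genes in BC CML vs WT, 880 for BCR-ABL, 995 for miR-142 loss and 168 for the interaction, with 150 raised by both, 136 lowered by both and 54 opposing (38 cancelled, 16 net). With the hits taken in order, fewer genes moved the same way by both: through CP CML 889 were raised and 709 lowered by both with 788 opposing (559 cancelled, 229 net), and through miR-142 KO 989 and 710, with 443 opposing (323 cancelled, 120 net). Each step compares fewer libraries than a main effect does, and both steps share the middle group, with opposite sign. How far this set the counts was not tested. The interaction was called in 891 genes by DESeq2 and in 988 without WT and miR-142 KO replicate 3, which was chosen after seeing the data. The position of CP CML minus that of miR-142 KO reversed to -0.033 with genes scaled to unit variance, and was 0.115 (exact permutation p = 0.026) without those 2 libraries.

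With each mouse left out in turn, 8332 to 9079 genes were called in BC CML vs WT, 7470 to 8258 for BCR-ABL, 6516 to 7043 for miR-142 loss and 375 to 787 for the interaction. Genes raised by both numbered 1631 to 1954, lowered by both 1550 to 1862 and opposing 649 to 921 (cancelled 490 to 659, net 141 to 262). The distance ranged from 0.940 to 0.987 and the position difference from 0.046 to 0.11. No paired analysis was possible because the replicate numbers were given in accession order and pair no mice across groups. Effects near the limit depend on single mice, and differences of genes below a few counts are not resolved at this depth.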

Other observations

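Genes of STAT5 signalling, which BCR-ABL activates, were higher in BC CML than in WT in 9 of 19 cases and lower in 1, with a median log2 fold change of 0.39. Cish, the cytokine-inducible SH2 protein that STAT5 switches on, held 9.45, 16.01 and 17.7 CPM in WT, 9.82, 17.02 and 30.1 CPM in miR-142 KO, 16.6, 19.2 and 26.3 CPM in CP CML and 25.2, 36.01 and 51.4 CPM in BC CML (log2 fold change 1.37 ± 0.22 (SE), adjusted p = 1.04e-05). Its BCR-ABL effect was 0.76 ± 0.15 and its miR-142 effect 0.61 ± 0.15. Ccnd2, cyclin D2, was the 1 lower member and stood at 465, 485 and 568 CPM in WT and 281, 321 and 378 CPM in BC CML (-0.63, adjusted p = 7.44e-07), and Bcl2l1, the survival protein BCL-XL, at 20.7, 22.4 and 23.6 and 27.3, 29.3 and 31.1 CPM (0.39, adjusted p = 1.15e-05). ERK feedback genes, which are switched on by RAS signalling and damp it, were higher in 1 and lower in 6 of 15 cases. The hits differed here: BCR-ABL raised 5 of the 15 and lowered 1 (median effect 0.138). Loss of miR-142 raised 1 and lowered 6 (median effect -0.527). Among them the phosphatase Dusp6 was at 77.4, 90.97 and 119.9 CPM in WT and 43.5, 48.1 and 63.6 CPM in BC CML (log2 fold change -0.93 ± 0.17 (SE), adjusted p = 7.02e-05), with -0.62 from miR-142 loss and -0.31 from BCR-ABL (the latter lost in 10 of 33 alternatives), and Spry2, a receptor tyrosine kinase inhibitor, at 27.4, 36.6 and 40.1 and 14.5, 17.4 and 20.6 CPM (-0.97, adjusted p = 8.36e-05).

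Surface proteins that mark CML stem cells were higher in 10 of 17 cases and lower in 5. Dpp4, which encodes CD26, was among the lower ones, at 104, 124 and 128 CPM in WT, 38.8, 40.8 and 48.4 CPM in miR-142 KO, 86.2, 108 and 128 CPM in CP CML and 21.9, 27.8 and 36.2 CPM in BC CML (log2 fold change -2.06 ± 0.12 (SE), adjusted p = 3.45e-12), with -0.35 from BCR-ABL and -1.71 from miR-142 loss. Hoxa, Meis and Pbx genes, factors of stem cell identity, were lower in 10 of 20 cases and higher in 3, and 6 were lowered by both hits (3 without the 4 libraries low in immediate early genes). Meis1 went from 257, 297 and 358 CPM in WT to 173, 188 and 222 CPM in BC CML (log2 fold change -0.66 ± 0.079 (SE), adjusted p = 2.22e-07). Megakaryocyte genes were mixed, with 5 higher and 8 lower of 18. Gp1ba, a chain of the platelet receptor for von Willebrand factor, was at 4.36, 6.69 and 9.18 CPM in WT and 29.7, 35.1 and 47.1 CPM in BC CML (2.44, adjusted p = 1.54e-09). In the BCL2 family, which sets the threshold of cell death, 7 of 17 were higher and 2 lower, among the former the effector Bax (21.5, 22.8 and 25.2 CPM in WT and 30.97, 35.1 and 39.1 CPM in BC CML, 0.61, adjusted p = 3.33e-07). DNA replication genes had 9 higher and 12 lower of 45, and 0 were raised by both. With upper quartile scaling 5 were higher and 20 lower. The share of all tested genes called in each direction was 32.9% higher and 32.1% lower.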
